A study of Mus musculus with 2 samples.

Results

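Secreted Wnt modulators were 10 of the 28006 features counted, chosen by symbol: Sfrp1, Sfrp2, Sfrp4, Wif1, Dkk2, Dkk3, Sost, Rspo1, Rspo2 and Rspo3. They were described in femur cells of 2 mice aged 28 postnatal days, sorted for Cxcl12-GFP (a GFP-high gate, by the study's methods), with 1 library of 3′ transcript tags per mouse. Both mice carried the same alleles, Cxcl12(GFP/+), Cxcl12-iCreER and R26R(tdTomato/+), and both received tamoxifen at postnatal day 21, so the study has 1 group and no untreated control. GFP marked cells with an active Cxcl12 locus, and tdTomato marked the cells, and their progeny, in which the recombinase made from a Cxcl12 bacterial artificial chromosome transgene had acted after tamoxifen. One protocol field in the labels names tdTomato+ cells as the sorted cells, whereas the characteristics name GFP+ cells. In the libraries 39.9% and 40.4% of reticular cells passed the tdTomato threshold set below.

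Wnt proteins are lipid-modified ligands that bind Frizzled receptors and the co-receptors Lrp5 and Lrp6 and stabilise beta-catenin, a signal long known to promote bone formation. Secreted antagonists act outside the cell. Secreted frizzled-related proteins (the Sfrp genes) and Wnt inhibitory factor 1 (Wif1) bind Wnt ligands, whereas Dickkopf proteins such as Dkk2, and sclerostin (Sost), bind the Lrp co-receptors. R-spondins (the Rspo genes) raise Wnt signalling by binding Lgr receptors and the ubiquitin ligases Znrf3 and Rnf43, which otherwise remove Frizzled from the cell surface.

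The libraries held 54940400 and 88790688 unique molecular identifiers (UMIs, 1 per captured transcript), and 2750 and 4582 barcodes passed a minimum of 1000 genes and a maximum of 15% of UMIs from mitochondrial genes. Cells were clustered without the members or any other Wnt gene of the lists used here, and clusters were named from fixed marker genes. Reticular cells (1256 in mouse 1 and 2423 in mouse 2), preosteoblasts (411 and 799), osteoblasts (14 and 61), periosteal cells (77 and 239) and endothelial cells (150 and 137) were compared, all names meaning "-like". Their clusters raised 7 or 8 of 8 reticular, 6 of 7 preosteoblast, 7 of 8 osteoblast, 9 of 10 periosteal and 8 of 8 endothelial markers. Col1a1, a preosteoblast marker, was not raised in the preosteoblast cluster, and Phex and Dpt were not raised in the osteoblast and periosteal clusters. A further 723 and 712 hematopoietic cells served as the level in cells that should lack the members, and 119 and 211 cells stayed unnamed. Each value below is given for mouse 1 and then mouse 2, as UMIs of the gene per 1000000 UMIs of the class (CPM). A transcript gives 1 tag whatever its length, so levels were not divided by length.

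Sfrp2, Dkk2, Rspo1, Wif1 and Sost, 5 of the members, had a promoter in the RefSeq table for GRCm38.p6, and 3 are shown because their transcripts were at their highest level in different classes: Wif1 in preosteoblasts, Dkk2 in endothelial cells and Sfrp2 in reticular cells. The stretches are chr10:121033754-121033959, chr3:132085042-132085291 and chr3:83766071-83766320, all on the plus strand and all before the annotated gene start. Capitals mark matches, on either strand, to the TATA box (letters TATAAA), the CCAAT box and the E-box (letters CACGTG).
Wif1: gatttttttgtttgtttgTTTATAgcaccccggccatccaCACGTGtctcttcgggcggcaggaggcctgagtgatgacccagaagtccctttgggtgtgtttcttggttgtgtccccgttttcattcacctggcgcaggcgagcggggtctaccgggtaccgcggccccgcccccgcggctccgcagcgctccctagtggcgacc
Dkk2: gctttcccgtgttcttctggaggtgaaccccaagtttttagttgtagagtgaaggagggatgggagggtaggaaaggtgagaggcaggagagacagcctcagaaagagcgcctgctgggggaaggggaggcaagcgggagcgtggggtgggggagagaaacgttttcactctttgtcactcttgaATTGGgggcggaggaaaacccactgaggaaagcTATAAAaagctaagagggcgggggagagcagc
Sfrp2: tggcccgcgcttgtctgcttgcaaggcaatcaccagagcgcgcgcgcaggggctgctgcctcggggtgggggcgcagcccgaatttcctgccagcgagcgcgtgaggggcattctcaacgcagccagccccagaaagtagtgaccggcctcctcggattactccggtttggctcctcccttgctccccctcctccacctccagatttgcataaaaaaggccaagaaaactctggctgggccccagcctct
The Dkk2 promoter held TATAAA beginning 32 bases before the start and a CCAAT box, found on the other strand, beginning 65 bases before it. The Wif1 match to TATAAA lay 232 bases before the RefSeq start, and its E-box 210 bases before it. For Wif1 the annotated gene start, where the printed stretch of 206 bases ends, lies before the RefSeq start, so the last of the 250 bases searched are not shown. Of 32851 promoters searched over the same 250 bases, 12.4% held the TATA box, 33.8% the CCAAT box and 6.02% the E-box. The core letters of other factor families were also searched on both strands, with CTTTGA for TCF/LEF found in 13.8% of promoters, TGTGGT for RUNX in 14.05% and CCGGAA for ETS in 12.03%, and the EBF palindrome in 0.779%. None of the 5 members held any of these in the window. Wif1 and Sfrp2 held 21 and 16 CG pairs in the 250 bases searched, against 7 for Dkk2 and a median of 6 over all promoters.

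The classes differed both in how much modulator transcript they held and in which member supplied it. All 10 members together came to 1829 and 1804 CPM in reticular cells, 1561 and 1360 CPM in preosteoblasts, and 3700 and 3064 CPM in periosteal cells. Osteoblasts held 117 and 182 CPM and endothelial cells 136 and 225 CPM, about the level in hematopoietic cells (97.8 and 185 CPM). Sfrp4 led in reticular and periosteal cells, Wif1 in preosteoblasts and osteoblasts, and Dkk2 in endothelial cells. Sfrp4 supplied 48.0% and 53.4% of the members' UMIs in reticular cells and 80.5% and 80.0% in periosteal cells. Wif1 supplied 44.4% and 43.5% in preosteoblasts and 67.2% and 60.1% in osteoblasts, and Dkk2 supplied 51.7% and 40.8% in endothelial cells. The osteoblast share in mouse 1 rests on 61 UMIs of all members. These shares are drawn in the stacked bars below.

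**Figure D1:**
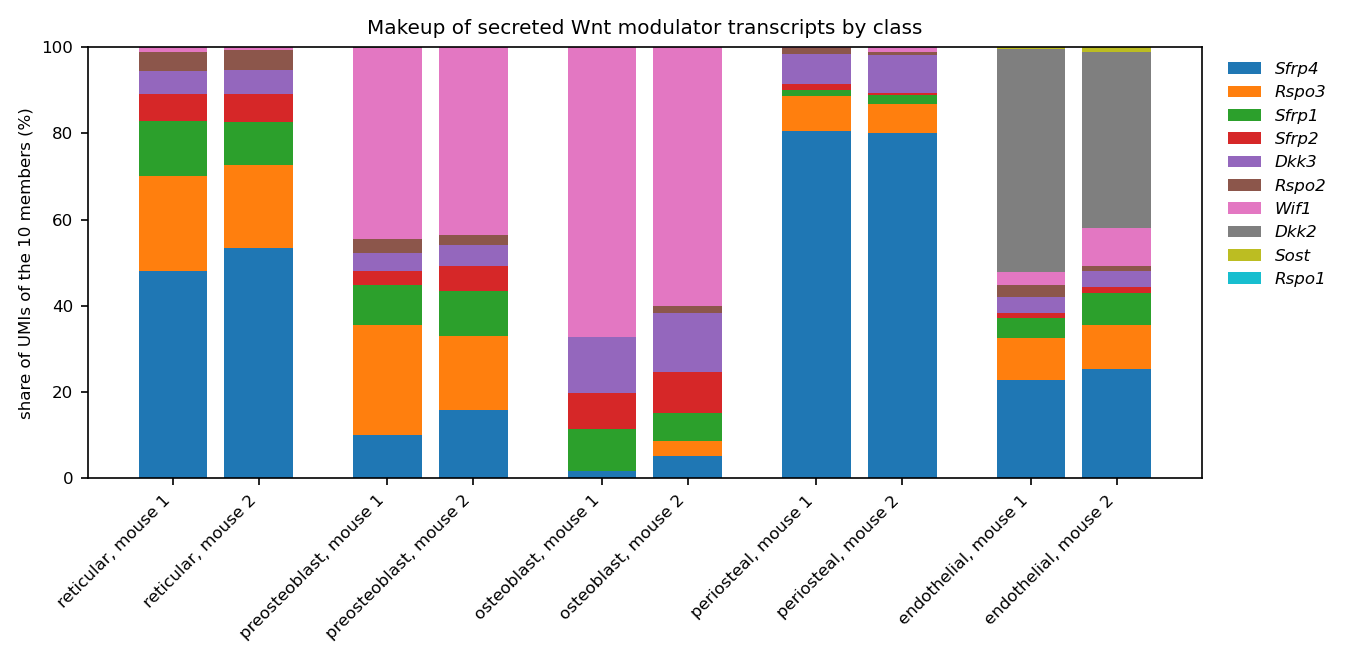
Share of the UMIs of the 10 members (y axis, percent) supplied by each member, for each class and mouse (x axis). The 2 mice of a class had similar makeups: Sfrp4 filled most of the periosteal bars, Wif1 most of the osteoblast bars, and Dkk2 appeared as a block only in the endothelial bars.

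At a fixed depth of 2000 UMIs per cell, most stromal cells held at least 1 member. Only 7.58% and 8.76% of reticular cells, 11.4% and 12.2% of preosteoblasts and 2.60% and 8.82% of periosteal cells held none, and 29.7% and 28.8%, 20.2% and 20.1%, and 22.1% and 18.9% of them held 3 or more. In endothelial cells 86.0% and 75.9% held none, and in osteoblasts 78.6% and 70.5%, against 92.1% and 88.0% of hematopoietic cells. Osteoblasts were the deepest class, with a median of 32968.5 and 46370 UMIs per cell against 12356.5 and 11567 in reticular cells, so the fixed depth left out more of their reads.

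**Figure D2:**
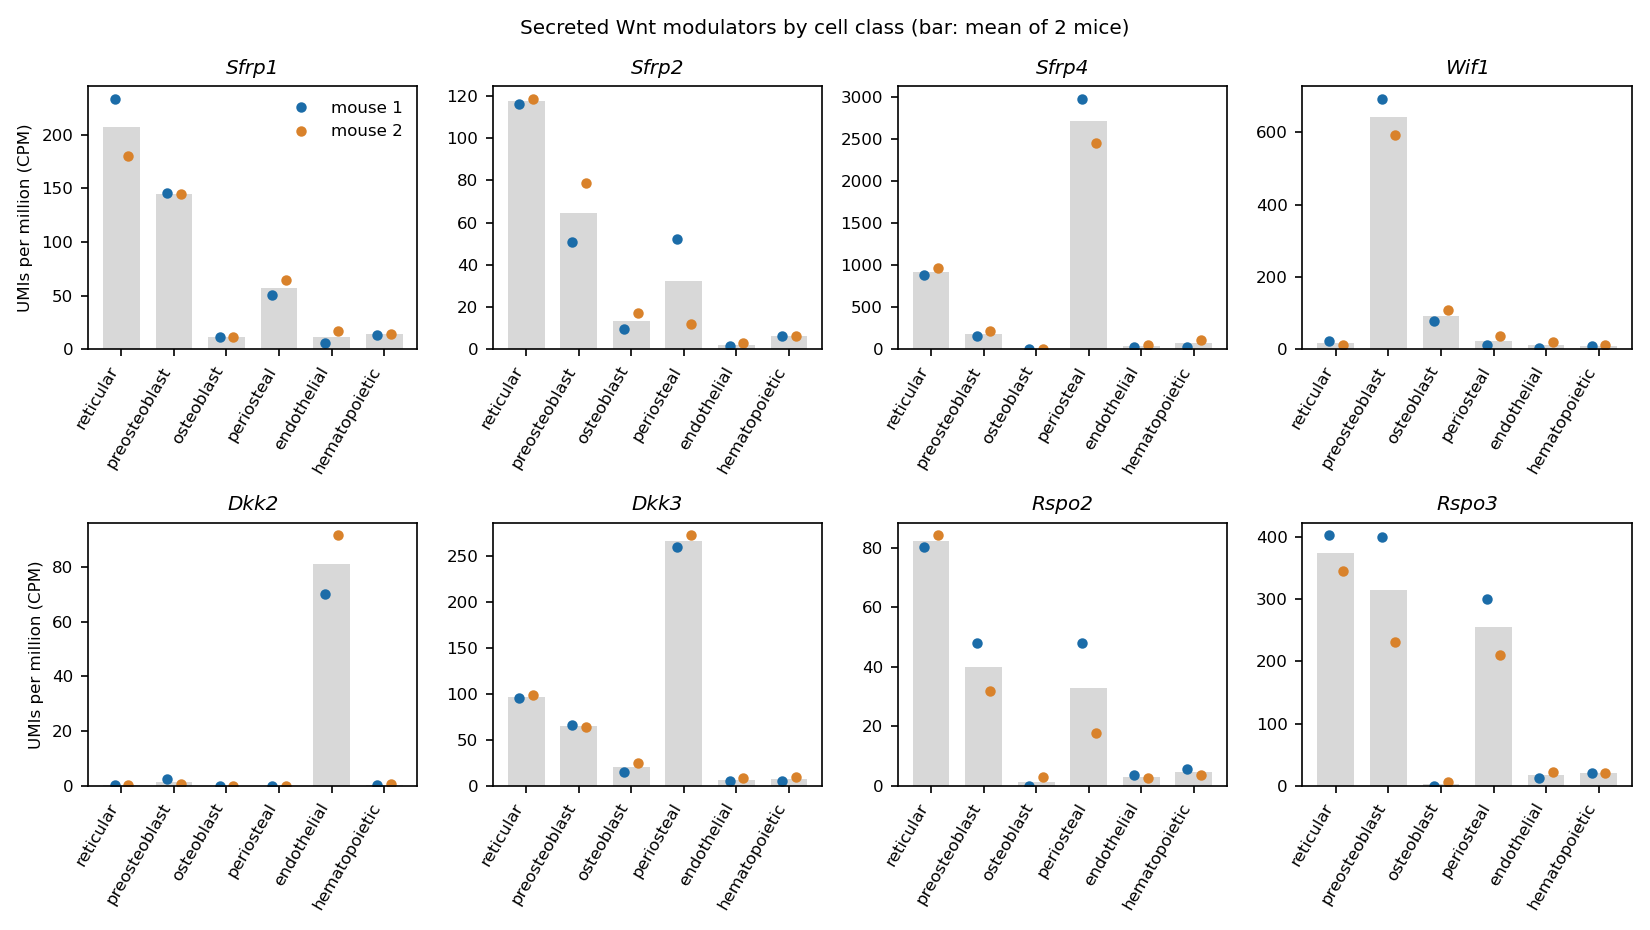
Level of the 8 members with measurable transcripts (y axis, CPM, from 0) in 5 classes and in hematopoietic cells (x axis); points are the 2 mice and bars their mean. Each panel has its own scale. Sfrp1, Sfrp2 and Rspo2 were highest in reticular cells, Sfrp4 and Dkk3 in periosteal cells, Wif1 in preosteoblasts and Dkk2 in endothelial cells.

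Differences between classes were tested with edgeR's quasi-likelihood test on UMIs summed per mouse and class (10 sums), with Benjamini-Hochberg adjustment over 11935 genes. Of the members 8 passed the filter on low counts and Rspo1 and Sost did not. Dkk2 passed through its endothelial counts, so its higher endothelial level was a condition of being tested. Between reticular cells and preosteoblasts 4 of the 8 were called (24.7% of all genes tested), 3 higher in reticular cells (12.0% of genes) and 1 lower (12.8%). Between osteoblasts and preosteoblasts 6 were called (35.1%), none higher in osteoblasts (16.5%) and 6 lower (18.5%). Between periosteal and reticular cells 5 were called (21.3%), 2 higher in periosteal cells (12.3%) and 3 lower (9.02%). Between periosteal cells and preosteoblasts 4 were called (21.4%), 2 higher in periosteal cells (12.6%) and 2 lower (8.86%). Between endothelial and reticular cells 7 were called (48.5%), 1 higher in endothelial cells (24.6%) and 6 lower (23.8%). The 1 higher was Dkk2, so nothing is read from that call and its fold is not given. The sums of 1 mouse share a library and each class has 2 mice, so the p-values rest on the spread between 2 animals. Adjusted p-values below are from this test. Each standard error (±) was derived from the F statistic of the fit, as the absolute log2 change divided by the square root of F.

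**Figure D3:**
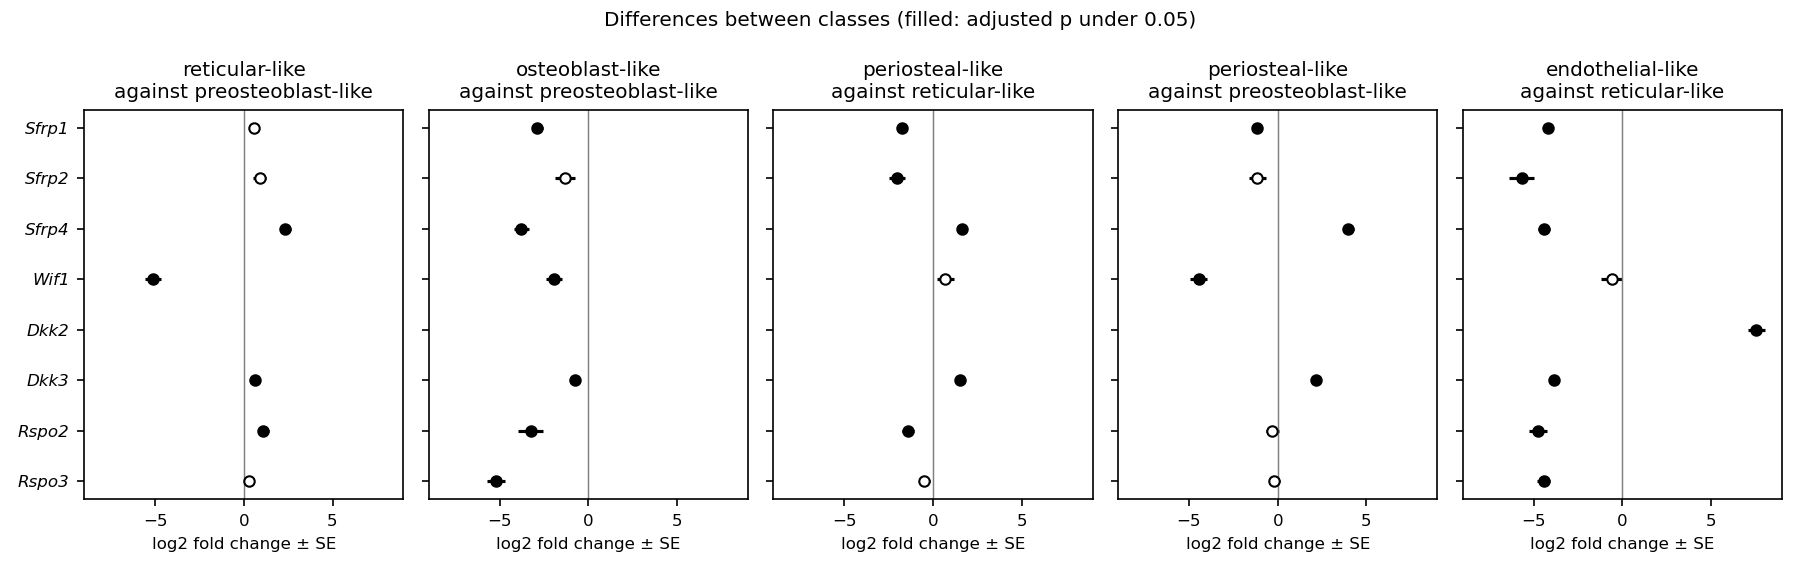
Log2 fold change ± standard error derived from the F statistic (x axis) of each tested member (y axis) in the 5 comparisons of classes. Filled circles have an adjusted p under 0.05. Dkk2 is drawn only for endothelial cells, since the other classes held few or none of its UMIs, and its filled circle there is no result, since it was tested through its endothelial counts. Sfrp4 and Wif1 moved in opposite directions between reticular or periosteal cells and preosteoblasts, and every member except Dkk2 lay below 0 in endothelial cells.

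Among the ligand-binding antagonists, Sfrp4 was the most abundant member in the data. Its level was 2977 and 2451 CPM in periosteal cells, 878 and 963 in reticular cells, 155 and 216 in preosteoblasts, 30.9 and 57.1 in endothelial cells, and 1.91 and 9.53 in osteoblasts. No neighbours in this order overlapped between mice. Periosteal cells exceeded reticular cells 3.11-fold (log2 1.64 ± 0.29 SE, adjusted p = 0.00267) and preosteoblasts 15.8-fold (log2 3.98 ± 0.32, adjusted p = 1.48e-05). Reticular cells exceeded preosteoblasts 5.09-fold (log2 2.35 ± 0.30, adjusted p = 0.000325). At 2000 UMIs per cell, 85.7% (95% Wilson interval 76.2 to 91.8) and 81.1% (75.6 to 85.6) of periosteal cells held an Sfrp4 UMI, as did 71.3% and 72.2% of reticular cells and 20.7% and 25.3% of preosteoblasts. The share in hematopoietic cells was 5.40% and 7.46%, and in endothelial cells 2.67% and 6.57%. The endothelial level was thus no higher than that of cells that should lack the gene (35.3 and 118 CPM in hematopoietic cells). Sfrp4 made up 421 and 465 CPM of the free RNA in barcodes with 1 to 100 UMIs, and its part in the low classes was not tested. Intervals and limits cover counting error only.

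Sfrp1 and Sfrp2 ran lower and were highest in reticular cells. Sfrp1 stood at 233 and 179.9 CPM in reticular cells, 146 and 144 in preosteoblasts, 50.9 and 64.3 in periosteal cells, 11.5 and 11.7 in osteoblasts and 6.29 and 16.8 in endothelial cells. Only the last 2 classes overlapped, and both lay about the hematopoietic level of 13.8 and 14.2 CPM. The step from preosteoblasts to reticular cells was 1.47-fold (log2 0.55 ± 0.20) and was not called (adjusted p = 0.0704), whereas with the mouse as a term of the fit it was called (adjusted p = 0.0482). It was also called without the filter, with only the compared classes in the fit, and without the cells of highest doublet score (adjusted p = 0.00306, 0.0283 and 0.00913). Sfrp1 was lower in periosteal cells than in reticular cells (log2 -1.74 ± 0.23, adjusted p = 0.000338) and than in preosteoblasts (log2 -1.19 ± 0.23, adjusted p = 0.00387), so of these 3 classes periosteal cells were lowest for Sfrp1 and highest for Sfrp4.

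Sfrp2 stood at 116 and 119 CPM in reticular cells, 50.7 and 78.9 in preosteoblasts, 52.4 and 12.0 in periosteal cells, 9.57 and 17.2 in osteoblasts and 1.57 and 3.14 in endothelial cells. Preosteoblasts overlapped periosteal cells, and periosteal cells overlapped osteoblasts. In mouse 1 a single periosteal cell held 42 of the 73 Sfrp2 UMIs of its class, and without it the level was 22.6 CPM. Reticular cells exceeded periosteal cells 4.10-fold (log2 -2.04 ± 0.47 for periosteal against reticular, adjusted p = 0.0105; -1.10 and -3.27 in single mice). The differences of Sfrp2 from preosteoblasts were not called (reticular log2 0.89 ± 0.38, adjusted p = 0.117; osteoblast -1.31 ± 0.57, adjusted p = 0.101; periosteal -1.15 ± 0.47, adjusted p = 0.116). The last of these took opposite signs in the 2 mice (0.16 and -2.63). With only the compared classes in the fit, the reticular and osteoblast differences were called (adjusted p = 0.0252 and 0.0227). Both were also called without the filter on low counts. Sfrp2 transcripts were unevenly spread over reticular cells, since the top 10% of cells held 60.01% and 60.1% of them, against 38.5% and 40.0% for Sfrp1 and 30.8% and 32.0% for Sfrp4.

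Wif1 marked preosteoblasts. Its level was 694 and 592 CPM there, 78.5 and 109 in osteoblasts, 11.5 and 37.2 in periosteal cells, 22.5 and 13.4 in reticular cells and 4.19 and 19.9 in endothelial cells. The first 2 classes stood apart from each other and from the rest, and the last 3 overlapped. In mouse 1 a single osteoblast held 18 of the 41 Wif1 UMIs of its class, and without it the osteoblast level was 48.1 CPM. Reticular cells held 35.0-fold less than preosteoblasts (log2 -5.13 ± 0.47, adjusted p = 3.67e-05), periosteal cells 21.8-fold less (log2 -4.45 ± 0.49, adjusted p = 0.000117) and osteoblasts 3.88-fold less (log2 -1.95 ± 0.44, adjusted p = 0.00589). In single mice the periosteal log2 difference was -5.76 and -3.92. At 2000 UMIs per cell, 50.9% (Wilson 46.0 to 55.7) and 52.5% (49.0 to 56.0) of preosteoblasts held a Wif1 UMI, against 3.59% and 2.27% of reticular cells and 1.25% and 1.55% of hematopoietic cells. Wif1 made up 138 and 143 CPM of the free RNA, and hematopoietic cells held 9.73 and 11.6 CPM.

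The low Wif1 levels rested on few cells. In mouse 2, 1 periosteal cell held 66 of 133 UMIs, and without it the periosteal level was 19.0 CPM. In the same mouse 1 endothelial cell held 21 of 38 UMIs, and without it the endothelial level was 9.20 CPM. Neither low class was called different from reticular cells (periosteal log2 0.68 ± 0.47, adjusted p = 0.356; endothelial log2 -0.61 ± 0.57, adjusted p = 0.410), and both differences changed sign between mice. With the cells of highest doublet score left out, the endothelial difference was -1.997 on the log2 scale (adjusted p = 0.0147).

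Dkk2 was the member of endothelial cells. It stood at 70.2 and 91.6 CPM there, 2.53 and 0.687 in preosteoblasts, 0.183 and 0.530 in reticular cells, and at 0 UMIs in both osteoblasts and periosteal cells of both mice, where a count of 0 allows up to 5.74 and 1.10 CPM and up to 2.15 and 0.839 CPM (3 counts). The reticular level rests on 3 and 16 UMIs. Of the 18 Dkk2 UMIs of preosteoblasts in mouse 1, 11 came from 1 cell. Hematopoietic cells held 0.219 and 0.687 CPM and free RNA 2.14 and 1.33 CPM, so the endothelial level was far above any background measured here. The endothelial cells formed 2 clusters. The larger (122 and 109 cells) raised 8 of 8 arterial markers, and the smaller (28 and 28 cells) 7 of 8 sinusoidal markers. All 134 and 175 endothelial UMIs of Dkk2 lay in the arterial cluster, at 92.6 and 118 CPM. The sinusoidal cluster held 0, which allows up to 6.505 and 6.996 CPM in its few cells. This split is a description, since the clusters were drawn on the same cells. Even among endothelial cells, 28.7% and 29.9% had a Dkk2 UMI at full depth, and the top 10% of cells held 68.7% and 70.9% of the UMIs.

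Dkk3, a Dickkopf family member that unlike Dkk2 is not an established Lrp antagonist, followed Sfrp4 in being highest in periosteal cells. It stood at 259.6 and 272 CPM there, 95.6 and 98.3 in reticular cells, 66.4 and 64.2 in preosteoblasts, 15.3 and 24.9 in osteoblasts and 5.24 and 8.38 in endothelial cells, with no overlap between neighbours. It was called in all 5 comparisons of classes. Periosteal cells exceeded reticular cells 2.89-fold (log2 1.53 ± 0.14, adjusted p = 3.48e-05) and preosteoblasts 4.43-fold (log2 2.15 ± 0.14, adjusted p = 4.74e-06), and reticular cells exceeded preosteoblasts 1.53-fold (log2 0.62 ± 0.14, adjusted p = 0.00831). The smallest of these steps was similar in each mouse (log2 0.59 and 0.67). A Dkk3 UMI was found in 39.0% and 38.7% of periosteal cells at 2000 UMIs, against 15.2% and 17.6% of reticular cells and 0.970% and 1.69% of hematopoietic cells.

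Sost, known as a product of osteocytes, was all but absent from these sorted cells. It gave 1 and 1 UMI in reticular cells, 0 and 1 in preosteoblasts, 0 and 0 in osteoblasts and periosteal cells, and 1 and 5 in endothelial cells, where 4 of the 5 came from 1 cell. In osteoblasts the count of 0 allows up to 5.74 and 1.10 CPM.

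Of the R-spondins, Rspo3 was abundant and Rspo2 moderate, and both were higher in reticular cells, preosteoblasts and periosteal cells than in osteoblasts. Rspo3 stood at 403 and 346 CPM in reticular cells, 399 and 231 in preosteoblasts, 300.5 and 209.7 in periosteal cells, 13.1 and 22.5 in endothelial cells and 0 and 6.23 in osteoblasts. The first 3 classes overlapped and were not called different (reticular against preosteoblasts log2 0.30 ± 0.30, adjusted p = 0.523; periosteal against reticular -0.49 ± 0.31, adjusted p = 0.306; periosteal against preosteoblasts -0.19 ± 0.31, adjusted p = 0.717). Osteoblasts lay 36.4-fold below preosteoblasts (log2 -5.19 ± 0.50, adjusted p = 2.96e-05). Mouse 1 exceeded mouse 2 in all 3 stromal classes. At 2000 UMIs, 48.8% and 43.7% of reticular cells, 46.0% and 33.9% of preosteoblasts and 41.6% and 34.9% of periosteal cells held an Rspo3 UMI, against 1.94% and 2.11% of hematopoietic cells.

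Rspo2 stood at 80.4 and 84.3 CPM in reticular cells, 48.2 and 32.0 in preosteoblasts, 48.1 and 17.9 in periosteal cells, 3.67 and 2.62 in endothelial cells and 0 and 2.93 in osteoblasts. Preosteoblasts and periosteal cells overlapped, as did endothelial cells and osteoblasts. The last 2 lay at or under the hematopoietic level of 5.78 and 3.74 CPM. Reticular cells exceeded preosteoblasts 2.14-fold (log2 1.10 ± 0.30, adjusted p = 0.0225) and periosteal cells 2.66-fold (log2 -1.41 ± 0.36 for periosteal against reticular, adjusted p = 0.0168; -0.69 and -2.21 in single mice). Neither difference was called by DESeq2 (adjusted p = 0.101 and 0.0753). Osteoblasts lay 9.56-fold below preosteoblasts (log2 -3.26 ± 0.69, adjusted p = 0.00412). Rspo1 gave 1 UMI in reticular cells of mouse 1, 1 in periosteal cells of mouse 2, and none in the other 3 classes.

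The fall of members from preosteoblasts to osteoblasts depended in size on the scaling. Osteoblasts spent much of their library on bone matrix, with the 8 osteoblast markers alone at 99427 and 65181 CPM against 511 and 1423 in preosteoblasts, and the trimmed mean scaling of the test raised their values. Dkk3, for example, stood at 22.5 and 37.6 CPM after scaling against 57.9 and 57.5 in preosteoblasts, a 1.70-fold fall (log2 -0.76 ± 0.19, adjusted p = 0.0110), whereas the unscaled levels were 15.3 and 24.9 against 66.4 and 64.2. The median of all genes in this comparison was -0.16 on the log2 scale. Sfrp1 fell 7.32-fold (log2 -2.87 ± 0.32, adjusted p = 7.36e-05) and Sfrp4 13.9-fold (log2 -3.80 ± 0.43, adjusted p = 7.86e-05). The osteoblast values rest on 14 and 61 cells, with 6 and 32 UMIs for Sfrp1, 1 and 26 for Sfrp4, 0 and 17 for Rspo3 and 0 and 8 for Rspo2. In single mice the log2 difference was -5.49 and -3.80 for Sfrp4 and -1.42 and -0.68 for Dkk3. In mouse 2 alone it was -4.50 for Rspo3 and -2.71 for Rspo2, which had no osteoblast UMI in mouse 1.

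In endothelial cells the 6 members called lower than in reticular cells fell 14.7-fold (Dkk3) to 51.3-fold (Sfrp2). Their endothelial values rest on few UMIs, with 3 and 6 for Sfrp2, 7 and 5 for Rspo2 and 10 and 16 for Dkk3. Sfrp4 had the most of them, 59 and 109. For Sfrp1 the log2 difference was -4.21, with -5.21 and -3.54 in single mice. With the cells of highest doublet score left out, the log2 differences of Sfrp1, Sfrp2 and Rspo3 were -5.22, -6.40 and -5.12, against -4.21, -5.68 and -4.44. Over both endothelial clusters together, the Sfrp1, Sfrp2, Sfrp4, Rspo2, Rspo3 and Dkk3 levels that remained lay near or below those of hematopoietic cells. Their source was not tested. All of these except Rspo2 were higher in the sinusoidal cluster (28 and 28 cells) than in the arterial cluster in both mice. Sfrp4, for example, stood at 102 and 142 against 8.29 and 32.4 CPM, and Rspo3 at 49.9 and 44.3 against 1.38 and 16.2 CPM. In the sinusoidal cluster Sfrp4 and Rspo3 thus lay above the hematopoietic level in each mouse.

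Reticular cells split into 5 clusters, named here by a leading gene: Ccl2 (351 and 1087 cells), Hspb1 (182 and 634), Egr1 (445 and 336), Bmp4 (236 and 322) and Cxcl9 (42 and 44). Members left out of the clustering could still differ between them. In the Bmp4 cluster Rspo2 stood at 118 and 159 CPM, above the 39.4 to 85.2 CPM of every other reticular cluster in either mouse, and Rspo3 at 595 and 574 CPM, above 271 to 457 CPM. Sfrp1 ranged from 165 to 251 CPM over all clusters and mice, Dkk3 from 73.2 to 109 CPM and Sfrp4 from 711 to 1014 CPM, with mice overlapping between clusters. Sfrp2 ranged from 101 to 199 CPM, the highest value resting on 36 UMIs of the Cxcl9 cluster in mouse 1. Sfrp4 was lowest in the Bmp4 cluster in both mice (711 and 856 CPM). Wif1 reached 105 and 33.8 CPM (19 and 6 UMIs) in the Cxcl9 cluster, a shallow cluster with a median of 3566.5 UMIs per cell, and 11.1 to 35.6 CPM in the others. These are descriptions, since clusters of the same cells give no independent test.

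**Figure D4:**
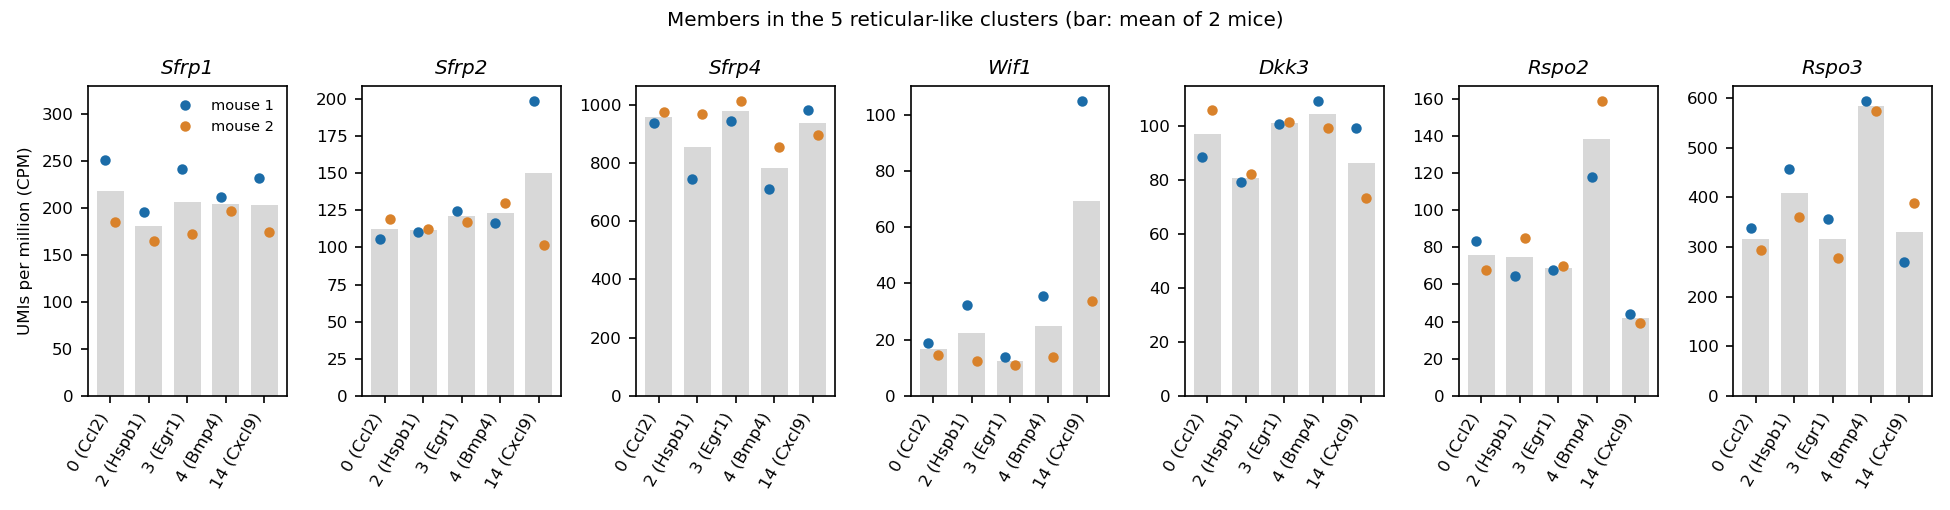
Level of 7 members (y axis, CPM, from 0, a scale per panel) in the 5 reticular clusters, labelled by number and a leading gene (x axis); points are the 2 mice and bars their mean. Rspo2 and Rspo3 peak in the Bmp4 cluster in both mice, while Sfrp1 ranges from 165 to 251 CPM, Sfrp4 from 711 to 1014 CPM and Dkk3 from 73.2 to 109 CPM.

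Preosteoblasts formed 1 cluster at the main resolution and 2 at a finer one. Of these, 1 was led by Npy, Spp1 and Omd (193 and 517 cells) and the other by Kcnk2, Slc20a2 and Syt6 (223 and 278 cells), with median depths of 19987 and 10668 UMIs. Rspo3 stood at 284 and 193 CPM in the Spp1-led cells and 554 and 375 CPM in the Kcnk2-led cells, and Rspo2 at 38.6 and 26.9 against 61.3 and 53.3 CPM. Sfrp4 ran the other way, at 190 and 229 against 106 and 167 CPM. Wif1 was high in both, at 710 and 634 CPM in the Spp1-led and 694 and 441 CPM in the Kcnk2-led cells. Mouse 1 had more Kcnk2-led than Spp1-led cells, and mouse 2 had fewer. Rspo3 was higher in mouse 1 within each of these groups too, and the part of their makeup in the difference between mice was not tested.

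Reticular cells above a threshold of tdTomato, the mark left by Cxcl12-iCreER, were compared with those at or under it. The latter could still hold tdTomato UMIs and are not shown to be unmarked. The threshold was set in each mouse at percentile 99 of the tdTomato level among hematopoietic cells (8.63 and 14.6 UMIs per 10000), which gave 501 and 978 positive and 755 and 1445 negative cells of like median depth (12358 against 12355 UMIs and 11669.5 against 11524). Without a term for the mouse, edgeR called 0 of 12192 genes (0.0%) and 0 of the 7 members tested. At an unadjusted p under 0.05 it had 462 genes and 2 members, and DESeq2 called 2 genes and no member. Since positive and negative cells came from the same animals, and their deviations correlated at 0.507, the fit with the mouse as a term is given beside it. With that term 527 genes passed (4.32%), of which 255 were higher (2.09%) and 272 lower (2.23%) in positive cells. Among them were 4 members, 1 higher and 3 lower. This fit had only 4 sums from 2 mice, so its p-values rest largely on a spread estimated over all genes.

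In tdTomato-positive reticular cells the Wif1 level was 11.2 and 8.40 CPM, against 30.2 and 16.8 CPM in tdTomato-negative cells (log2 -1.17 ± 0.13 with the mouse as a term, adjusted p = 2.69e-08). Both levels were small beside that of preosteoblasts, and the positive cells lay at the hematopoietic level. For Wif1 the adjusted p was 0.989 without the mouse as a term and 0.344 by DESeq2. Rspo2 stood at 66.5 and 70.8 against 89.8 and 93.3 CPM (log2 -0.39 ± 0.06, adjusted p = 3.34e-05). Rspo3 stood at 374 and 295 against 423 and 381 CPM (log2 -0.25 ± 0.06, adjusted p = 0.00514). Sfrp4 ran the other way, at 938 and 1026 against 837 and 921 CPM (log2 0.19 ± 0.05, adjusted p = 0.00828). Dkk3 rose in the same sense, at 101 and 105 against 92.2 and 93.9 CPM, without being called (log2 0.17 ± 0.06, adjusted p = 0.0918), and Sfrp1 and Sfrp2 were not called (adjusted p = 0.945 and 0.196). Positive cells made up a smaller share of the Rspo2-high Bmp4 cluster (28.0% and 28.6%) than of all reticular cells. Within the 5 clusters and 2 mice Rspo2 and Wif1 were lower in positive cells in 10 of 10 pairs, Rspo3 in 9 of 10, Sfrp4 was higher in 8 of 10 and Dkk3 in 10 of 10. These pairs come from 2 animals, and those of the Cxcl9 cluster rest on few UMIs, with 1 against 7 and 1 against 6 for Rspo2 and 2 against 17 and 0 against 6 for Wif1. Positive cells of the Hspb1, Egr1 and Bmp4 clusters held 6 and 13, 16 and 18, and 21 and 15 Wif1 UMIs. In mouse 1, a single cell held 34.9% of the 63 Wif1 UMIs of negative Hspb1-cluster cells, and another held 33.3% of the 21 of positive Bmp4-cluster cells. Over all reticular cells, the top 10% held 88.3% and 96.6% of Wif1 UMIs. The part of the clusters' makeup in the differences over all reticular cells was not tested. The called differences in Rspo3 and Sfrp4 were 1.19-fold and 1.14-fold.

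**Figure D5:**
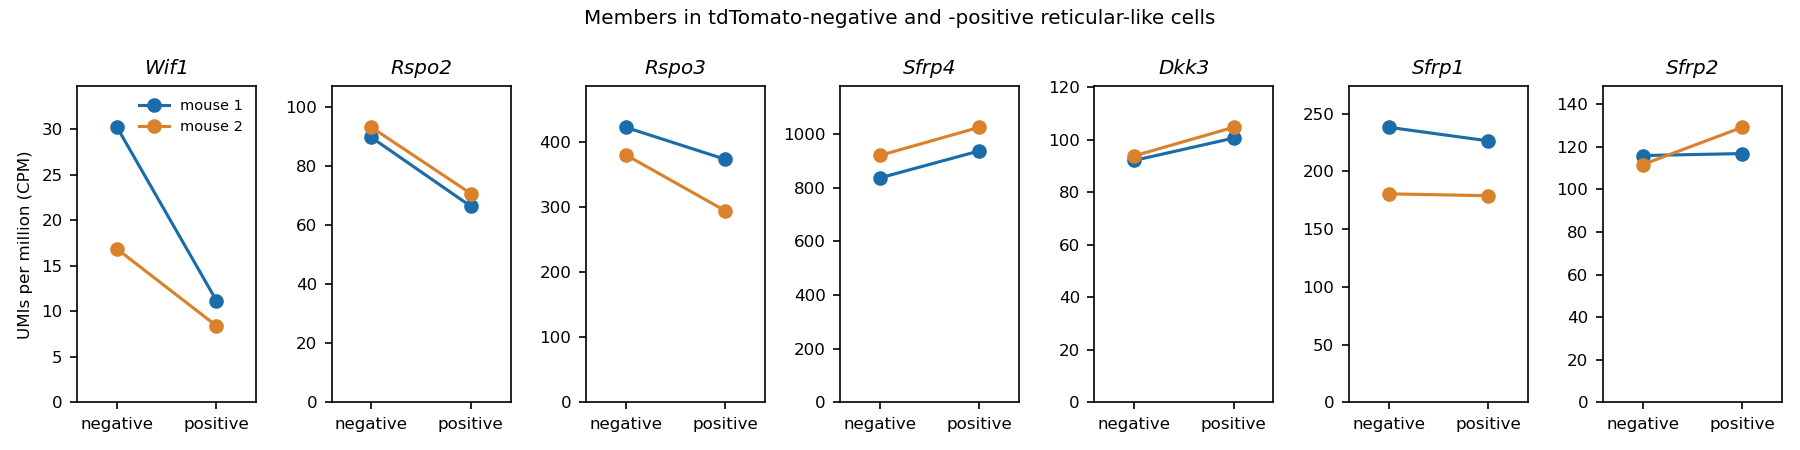
Level of 7 members (y axis, CPM, from 0, a scale per panel) in tdTomato-negative and tdTomato-positive reticular cells (x axis); each line joins the 2 values of 1 mouse. Wif1, Rspo2 and Rspo3 slope down and Sfrp4 and Dkk3 slope up in both mice.

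The other genes of the pathway were followed as 4 lists, whose counts stand beside the shares of all genes called. Those shares were 12.0% higher and 12.8% lower for reticular cells against preosteoblasts, 16.5% and 18.5% for osteoblasts against preosteoblasts, and 12.6% and 8.86% for periosteal cells against preosteoblasts. Against reticular cells they were 12.3% and 9.02% for periosteal and 24.6% and 23.8% for endothelial cells. Nothing is called particular to a list from these counts. Some listed genes may have passed the filter on low counts through the class where they were high, as Dkk2 did. Of 11 further secreted modulators 6 were tested. Relative to preosteoblasts, 0 were higher and 2 lower in reticular cells, and 5 were higher and 1 lower in osteoblasts, with a median log2 change of 4.35 against -0.16 for all genes. Cthrc1, a secreted glycoprotein that binds Wnt and Frizzled proteins, stood at 1242 and 1551 against 11.1 and 28.0 CPM (log2 6.87 ± 0.51, adjusted p = 5.7e-06). Serpinf1, which codes for pigment epithelium-derived factor, stood at 1818 and 2023 against 160 and 240 CPM (log2 4.01 ± 0.28). Igfbp4, an insulin-like growth factor binding protein, ran against them at 93.8 and 121 against 4255 and 2997 CPM (log2 -4.28 ± 0.27). Frzb, the Sfrp3 gene, stood at 13.6 and 17.3 CPM in periosteal cells against 0.975 and 3.74 CPM in reticular cells. It may have passed the filter through its periosteal counts, so nothing is read from its calls. Against reticular cells, 2 further modulators were higher and 1 lower in periosteal cells, and 1 was higher and 1 lower in endothelial cells. In periosteal cells 1 was higher and 2 were lower than in preosteoblasts.

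Of 19 Wnt ligands 5 were tested. All 5 were called between periosteal and reticular cells, 3 higher and 2 lower in periosteal cells. There Wnt9a (21.5 and 22.1 against 1.65 and 0.960 CPM) and Wnt5a (52.4 and 64.9 against 10.1 and 9.30 CPM) were higher and Wnt4 (17.9 and 34.1 against 120 and 146 CPM) lower. Wnt9a may have passed the filter through its periosteal counts, so nothing is read from its calls. Wnt11 gave no UMI in endothelial cells or osteoblasts of either mouse, against 23.96 and 20.3 CPM in reticular cells and 26.0 and 10.6 CPM in preosteoblasts. Against preosteoblasts, 0 ligands were higher and 1 lower in reticular cells, 1 higher and 2 lower in osteoblasts, and 3 higher and 1 lower in periosteal cells. In endothelial against reticular cells 0 were higher and 3 lower.

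Of 24 Wnt receptors 19 were tested. In reticular cells 6 were higher and 2 lower than in preosteoblasts, among them Fzd4 (41.1 and 39.6 against 16.01 and 13.5 CPM), Fzd7 and Fzd1 on the higher side and Lrp4, which binds sclerostin, on the lower (27.5 and 29.5 against 178 and 114 CPM). In endothelial cells 3 were higher and 13 lower than in reticular cells. Fzd6 followed Dkk2, at 81.2 and 85.9 CPM against 0 and 0.0993 CPM. Like Dkk2 it may have passed the filter through its endothelial counts, so nothing is read from its call. In osteoblasts 3 receptors were higher and 6 lower than in preosteoblasts, with Ror1 lower (0 and 0.366 against 12.9 and 14.8 CPM). In periosteal cells 5 were higher and 2 lower than in reticular cells, and 6 higher and 1 lower than in preosteoblasts, where Fzd2 stood at 88.9 and 91.4 against 31.9 and 27.0 CPM. Lgr4, the R-spondin receptor of this set with the most UMIs, stood at 32.4 and 27.8 CPM in reticular cells, while Lgr5 and Lgr6 did not exceed 2.15 CPM in any of the 5 classes, and Lgr4 and the 2 others were named after their values were seen.

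Of 15 intracellular and target genes 14 were tested. Lef1, a beta-catenin partner and target, was at 12.9 and 13.6 CPM in preosteoblasts. It stood at 0.549 and 0.563 CPM in reticular cells and 0 and 1.68 CPM in periosteal cells. Lef1 may have passed the filter through its preosteoblast counts, so nothing is read from its calls. In total 1 gene of the list was higher and 4 lower in reticular cells than in preosteoblasts, 4 higher and 3 lower in osteoblasts, and 0 higher and 3 lower in periosteal cells. Periosteal against reticular cells gave 2 higher and 2 lower. Endothelial against reticular cells gave 4 higher and 5 lower, with Ctnnb1, which codes for beta-catenin, at 780 and 691 against 177 and 164 CPM. Between tdTomato-positive and negative reticular cells, 43 genes of the 4 lists were tested. Without a term for the mouse edgeR called 0 of them, with 4 at an unadjusted p under 0.05. With that term 2 were higher in positive cells (Igfbp4 and Wnt4) and 4 lower (Wnt16, Fzd5, Ror2 and Nkd2), against 2.09% and 2.23% of all genes, and these 6 were named after their values were seen.

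The genes most like each member over the 10 class sums were found by Pearson correlation of log2(CPM + 1), among 4317 genes with at least 50 CPM in 1 class in both mice. Sfrp4 was closest to C1s1 (r = 0.997) and Ltbp2 (r = 0.986), Dkk3 to Sod3 (r = 0.990) and Bicc1 (r = 0.987), and Rspo3 to Emb and Col5a3 (both r = 0.993). Dkk2 was closest to Tspan15 (r = 0.994) and Cdk17 (r = 0.992), Sfrp1 to Mir143hg (r = 0.995) and the Wnt receptor Fzd5 (r = 0.987), and Rspo2 to 1500009L16Rik (r = 0.982) and Basp1 (r = 0.979). Wif1 (Smarcc1, r = 0.949) and Sfrp2 (Tspan31, r = 0.966) had the least close neighbours. The 10 points share 2 libraries and 5 classes, so these values describe a shared pattern over classes.

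In the mm10 build, Sfrp2 and Dkk2 lie on chromosome 3 (83766321 to 83774316 and 132085292 to 132180304) and Rspo3 and Wif1 on chromosome 10 (29452416 to 29535867 and 121033960 to 121100650). Sfrp1 lies on chromosome 8 (23411502 to 23449632), Sfrp4 on chromosome 13 (19623104 to 19632994), Dkk3 on chromosome 7 (112116017 to 112159057) and Rspo2 on chromosome 15 (43020794 to 43170826). Rspo1 lies on chromosome 4 (124986430 to 125009099) and Sost on chromosome 11 (101962458 to 101967015). Annotated genes on the other strand overlap Sfrp2 (Gm26771), Rspo1 (Gm12930) and Rspo3 (Gm48159), and Gm20276 overlaps Rspo3 on its own strand, so that the Rspo3 tags could be shared.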

How the data were processed

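Cells of 2 mice (1 group) were read as whole-number counts of UMIs per gene and barcode, which the authors had deposited unnormalized; the deposited headers name Cell Ranger 3.0.0, and the submitters' processing notes name Cell Ranger, Seurat and the mm10 build. The steps below were computed from them. Barcodes under 1000 genes or over 15% mitochondrial UMIs were dropped; 7 of the kept barcode sequences occurred in both libraries. Cells were clustered in scanpy 1.11.5 (2000 variable genes without Wnt genes, mitochondrial genes and 8 reporter features, 30 components, 15 neighbours, Leiden resolution 0.5, 18 clusters). A class needed at least 3 raised markers, and clusters whose top genes favoured another class stayed unnamed. The classes are rebuilt, not the study's. Scrublet called 1 and 3 cells and had not worked, so all cells were kept and the 60 and 168 of highest score were left out as an alternative. UMIs were summed per mouse and class, filtered with filterByExpr, scaled by TMM and tested with edgeR 4.0.16 (R 4.3.3) at an adjusted p under 0.05; the code was tested on simulated data. DESeq2 1.42.0, the mouse as a term, no filter, only the classes compared, resolution 1, at least 2000 genes with at most 10% mitochondrial UMIs, and each mouse alone were the alternatives. Detection was compared after thinning each cell to 2000 UMIs, which left out 3 and 4 reticular, 3 preosteoblast and 1 periosteal cell. The replicate numbers pair the samples because sums with the same number come from the same animal; deviations of the same mouse correlated at 0.0762 to 0.507. Named genes were all 10 members; of the other Wnt genes up to 3 called genes of largest fold in each direction per comparison with at least 10 CPM in the higher class in both mice; and, for members with at least 50 CPM, the 2 most alike genes. The members and lists were chosen with earlier results of these data known.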

Additional observations from a re-analysis of the deposited data

Results flagged for a closer look

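Cells outside the comparisons also held transcripts of the members. Wif1 stood at 434 CPM in mouse 1 and 445 CPM in mouse 2 in an unnamed cluster of 66 and 81 cells led by Acta2 and cell cycle genes, against 9.73 and 11.6 CPM in hematopoietic cells. This cluster raised 6 of 7 preosteoblast markers and lay outside every comparison. Its other measurable members were also above both hematopoietic values: Rspo3 at 274.5 and 224 CPM, Sfrp4 at 154 and 127, Sfrp1 at 107 and 112, Sfrp2 at 36.6 and 80.7, Dkk3 at 41.0 and 37.3 and Rspo2 at 14.3 and 28.4. Rspo1, nearly absent from the 5 classes, gave 13 UMIs in 112 macrophage-like cells of mouse 1 (4.06 CPM, exact Poisson interval 2.16 to 6.94) and 1 UMI in 88 such cells of mouse 2 (0.520 CPM, 0.0132 to 2.90), at median depths of 22165 and 12853.5 UMIs. In mouse 1, 9.82% of these cells held a UMI and the highest cell held 15.4% of them. These are values with no test. Groups of 2 mice are too small to look for a sample apart from the others.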

How the results depend on the processing

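Values in osteoblasts rest on 14 and 61 cells, where a count of 0 allows up to 5.74 CPM in mouse 1. The next counts cover the single-member results, with Dkk2 counted only in endothelial against reticular cells, where nothing is read from its call. Of alternatives with both mice, 283 kept direction and side of the threshold, 23 kept direction and passed it, and 2 kept direction and lost it. Of single-mouse values, 81 kept direction and 5 reversed. With the mouse as a term (replicate block), Sfrp1 between reticular cells and preosteoblasts gained its call, and 4 members in place of 0 were called between tdTomato-positive and negative cells; 4 were also called with at least 1 tdTomato UMI in thinned cells and the block, an alternative chosen after seeing the data, and the block changed no other call. Without a filter on low counts 7 members were called between reticular cells and preosteoblasts and 1 between tdTomato-positive and negative cells, and the cause was not tested. Over all genes the tdTomato comparison called 0, against 51 without the filter, 2 with DESeq2, 527 with the block, and 1 and 524 with at least 1 tdTomato UMI without and with the block. DESeq2 lost the 2 Rspo2 calls given above. Single-mouse log2 values of both signs (mouse 1 and mouse 2) were found for Wif1 in periosteal against reticular cells, -0.90 and 1.47, and in endothelial against reticular cells, -2.40 and 0.43; for Sfrp2 and Rspo2 in periosteal cells against preosteoblasts, 0.16 and -2.63, and 0.11 and -0.76; and for Sfrp1 in tdTomato-positive against negative cells, -0.047 and 0.018. The highest class by share of thinned cells was the same as by level for every member compared.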
